A study of Mus musculus with 6 samples.

Results

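The transcripts of 10 NF-kB genes were compared between control cultures of mouse brain endothelial cells and cultures labelled as a double knockout of the ETS transcription factors Erg and Fli1. The genes were chosen by name, with earlier results of these data known. Of them, 3 are subunits of the canonical pathway (Nfkb1, Rel and Rela) and 2 of the non-canonical pathway (Nfkb2 and Relb). The others are 3 genes of the IkB family (Nfkbia, Nfkbie and Nfkbiz) and 2 ubiquitin-pathway regulators (Tnfaip3 and Birc3). The genes make up 10 of the 52636 rows of the count table, and all 10 were among the 13901 genes with enough counts to be tested. Each had 94 to 5674 counts in a library.

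The 6 polyadenylated RNA libraries came from endothelial cells isolated from mouse brain and grown in endothelial medium. Both groups received 4-OHT (4-hydroxytamoxifen), which switches on an inducible Cre recombinase: the control group (n = 3) is labelled a wild type control, and the knockout group (n = 3) a double knockout of Erg and Fli1. The driver of the recombinase, the alleles carried by the controls, the age of the mice and the time after 4-OHT are not given in the labels. Live (DAPI-negative) cells were sorted as CD45-negative, CD31-positive and VE-cadherin-positive. The labels give replicate numbers but no separate cultures or animals, so the p-values reflect how much these libraries vary, some of which may be technical.

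NF-kB factors are dimers that wait in the cytoplasm bound to IkB proteins. In the canonical pathway, receptors for TNF, interleukin-1 and bacterial products activate the IKK complex, the IkB protein is destroyed, and dimers of Rela or Rel with p50, the processed product of Nfkb1, enter the nucleus. In the non-canonical pathway, receptors such as the lymphotoxin beta receptor stabilise the kinase NIK (Map3k14), which lets the Nfkb2 precursor be processed to p52, the partner of Relb. Several IkB genes, Tnfaip3 and Birc3 are themselves textbook NF-kB target genes, so that their transcripts are commonly read as feedback. In endothelium the canonical pathway is best known for switching on leukocyte adhesion molecules and chemokines.

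Sequences upstream of annotated start sites of the member genes are shown because the feedback genes are known for kappaB sites near their start sites. Some genes have several start sites, so a window before one start can lie within a longer transcript. RefSeq promoter entries on GRCm38.p6 were found for 7 of the 10 members (none for Nfkb1, Relb or Nfkbiz), with 10 entries in all. The 250 bases before each start were searched on both strands for the 10-base kappaB consensus. Matches lay in 7 of these 10 entries, belonging to 5 members, while 7.25% of all 32851 such windows in the table held a match. The 250 bases before the start of Nfkbia, which encodes IkB alpha, lie outside every annotated exon (chr12:55492648-55492897, minus strand), and the kappaB match is in capitals.
Nfkbia: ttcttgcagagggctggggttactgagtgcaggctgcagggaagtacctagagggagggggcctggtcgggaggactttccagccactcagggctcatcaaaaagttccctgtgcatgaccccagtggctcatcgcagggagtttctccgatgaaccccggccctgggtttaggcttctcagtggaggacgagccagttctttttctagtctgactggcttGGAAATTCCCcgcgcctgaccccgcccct

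For the other 4 members with a match, 1 match each is shown with its flanking bases, written 5′ to 3′ on the strand of the gene, again with the matched bases in capitals. The coordinates are those of the match. The window of Nfkb2 lies wholly within annotated exons and that of Tnfaip3 is 44% exonic, counting exons of any gene on either strand. The matches shown for Nfkb2 and Tnfaip3 are upstream of 1 RefSeq start and inside the gene span given below.
Nfkb2 (chr19:46304698-46304707, plus strand): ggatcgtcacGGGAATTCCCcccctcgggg
Rel (chr11:23771052-23771061, minus strand): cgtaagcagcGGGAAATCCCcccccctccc
Nfkbie (chr17:45555594-45555603, plus strand): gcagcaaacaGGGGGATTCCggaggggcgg
Tnfaip3 (chr10:19015526-19015535, minus strand): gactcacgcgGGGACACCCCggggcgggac

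The match lies 29 to 20 bases before the start in Nfkbia, 39 to 30 bases in Nfkb2, 92 to 83 bases in Rel, 106 to 97 bases in Nfkbie and 125 to 116 bases in Tnfaip3. No kappaB match was found in the windows of Rela and Birc3. The ETS core CCGGAA, on either strand, was present in the windows of 2 members, Nfkbie and Birc3, and in 12% of all windows. One of the ETS matches of Nfkbie overlaps its kappaB match. These are matches of letters in a window and are not measurements of binding.

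The targeted genes and the makeup of the libraries bear on every value that follows. Levels are given as CPM (gene counts divided by the TMM-scaled size of their library). Erg was at 656, 223 and 609 CPM in controls 1 to 3 and at 70.2, 88.3 and 109 CPM in knockouts 1 to 3, and Fli1 was at 82.9, 64.1 and 92.1 against 57.0, 68.5 and 66.7 CPM. Erg was lower in the knockout (log2 fold change -2.48 ± 0.44 SE, edgeR adjusted p = 0.0137), a call lost without control 3 or without any of the knockouts (adjusted p from 0.0508 to 0.0691). Fli1 did not pass the test (-0.32, edgeR adjusted p = 0.181) and was called lower without control 2 (-0.48, adjusted p = 0.00346). These are whole-gene counts, which would also include transcripts that lack only the deleted exons. Control 2 stood apart: the summed level of 7 fibroblast markers was 12700 CPM there, 425 and 1130 CPM in controls 1 and 3 and 1800 to 3030 CPM in the knockouts, and 7 mural markers summed to 3530 CPM against 431 to 1320 CPM in the other 5 libraries. The fibroblast sum was mostly Col1a1 and Col1a2 in control 2 (5490 and 4520 CPM) and mostly Dcn in the knockouts (1420, 2110 and 1340 CPM). Col1a1 was at 235, 104 and 110 CPM in the knockouts and at 214 and 627 CPM in controls 1 and 3. Of the 7 markers, 4 had a log2 fold change above 0 and 1, Pdgfra, was called higher. Acta2 alone held 3050 CPM of the mural sum in control 2. All 8 endothelial markers were called lower in the knockout by edgeR (5570 to 12500 CPM summed in controls, 2120 to 2780 in knockouts). Over all tested genes 11.7% were called lower, and 24.8% without control 2, where all 8 markers were again called lower. The calls of Cdh5 and Emcn were each lost when any library other than control 2 was left out. That of Kdr was lost without control 3, knockout 1 or knockout 2, and that of Cldn5 without any of these or control 1. Markers of leukocytes (10 genes) and of neural cells (8 genes) summed to at most 4.22 and 5.86 CPM in any library, with Tyrobp, C1qa and Olig1 at 0 throughout. Control 2 and knockouts 2 and 3 had the X-linked Xist at 431 to 611 CPM and the other 3 libraries had at most 5.32 CPM, so that the sex of the cells was not balanced between the groups. In such bulk libraries fewer cells of a type and less RNA per cell cannot be told apart. Each member is therefore also given without control 2.

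Of the 10 members, 7 were higher in the knockout and 0 were lower (edgeR quasi-likelihood F test, adjusted over all 13901 genes, threshold 0.05). Among all tested genes 13.1% were called higher and 11.7% lower. Before adjustment, 8 were higher and 0 lower at p under 0.05, a count that was not set against all genes. DESeq2 called 8 and 0, and limma voom called 7 and 0. In both directions together, 4375 of all genes were called by DESeq2, 3454 by limma voom and 3437 by edgeR. The median log2 fold change of the members was 1.02, against 0.003 over all tested genes. Because the members were chosen with earlier results of these data known, their distance from all tested genes is not a test. In 8 members every knockout library lay above every control library, a pattern that 25.0% of tested genes showed. Without control 2, all 10 members passed the test, 9 as higher and 1, Rela, as lower, while the share of all genes called rose to 25.5% higher and 24.8% lower.

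**Figure D1:**
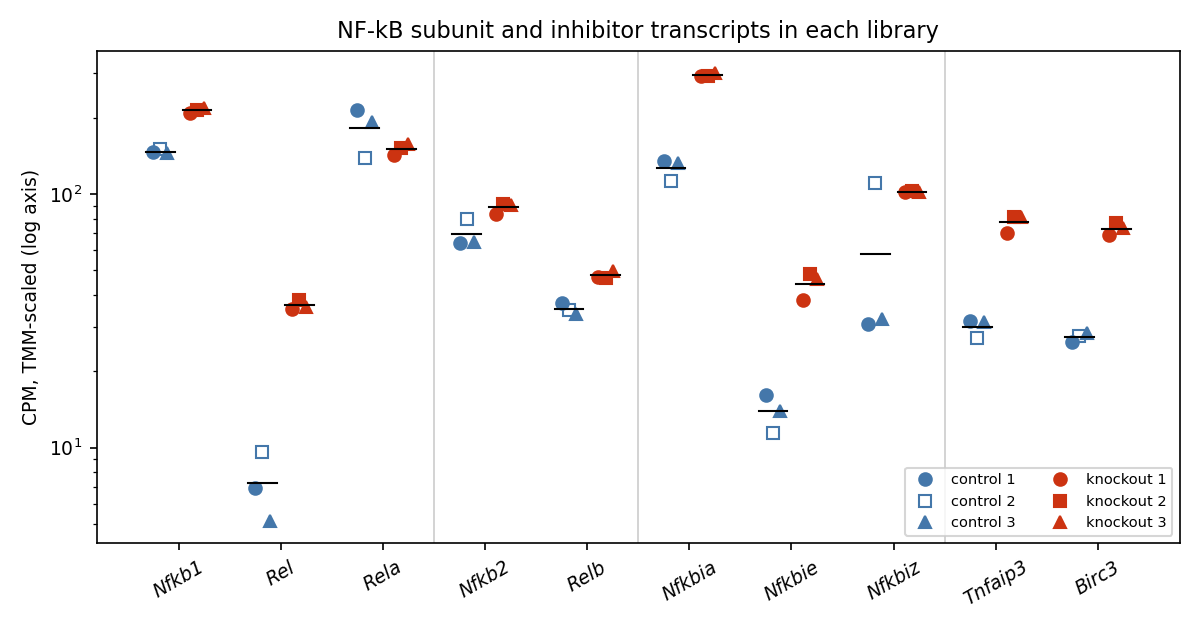
TMM-scaled CPM of the 10 members (log axis) in each of the 3 control (blue) and 3 knockout (red) libraries. The group mean is a black line, and vertical lines part canonical subunits, non-canonical subunits, IkB family genes and ubiquitin regulators. The knockout libraries lie close together for every member, while control 2 (open square) departs most from the other controls at Nfkbiz, where it reaches 111 CPM.

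Of the 3 canonical subunits, Nfkb1 and Rel rose and Rela did not pass the test. Nfkb1 (ENSMUSG00000028163, chr3:135584655-135691547, minus strand, GRCm38) encodes the p105 precursor of p50 and is itself an IkB-like inhibitor before processing. Its transcripts were at 147, 151 and 145 CPM in controls 1 to 3 and at 209, 214 and 219 CPM in knockouts 1 to 3. The groups did not overlap, and control 2 was like the other controls. The level rose from 147 ± 3.21 to 214 ± 4.87 CPM (SD, n = 3 each; log2 fold change 0.54 ± 0.05 SE, edgeR adjusted p = 0.00287; 0.52 without control 2, adjusted p = 1.672e-04), a ratio of 1.45.

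Rel (ENSMUSG00000020275, chr11:23736847-23770970, minus strand) encodes c-Rel, a subunit best known from lymphocytes. It stood at 6.95, 9.58 and 5.15 CPM in the controls and at 35.2, 38.4 and 35.9 CPM in the knockouts. The highest control was far under the lowest knockout, and the mean rose 5.05-fold, from 7.23 ± 2.23 to 36.5 ± 1.67 CPM (log2 fold change 2.33 ± 0.23, edgeR adjusted p = 0.00286). This was the largest log2 fold change among the 10 members, both with all 6 libraries and without control 2 (2.55, adjusted p = 1.879e-05). Rel nevertheless had the lowest level per kb of transcript of all members in both groups, 0.968 CPM per kb in controls and 4.89 in knockouts.

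Rela (ENSMUSG00000024927, chr19:5637483-5648130, plus strand) encodes p65, the subunit that carries most of the transactivating function of canonical dimers. It was the member whose estimate pointed down. The controls had 215, 139 and 193 CPM and the knockouts 143, 152 and 158 CPM, so that controls 1 and 3 were above all knockouts and control 2 was below them. With all libraries the groups overlapped and no difference passed the test (183 ± 39.0 against 151 ± 7.43 CPM, log2 fold change -0.27 ± 0.16, edgeR adjusted p = 0.275). Without control 2, Rela was lower in the knockout (-0.47, adjusted p = 0.00156).

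The non-canonical subunits differed by less than Rel did. Nfkb2 (ENSMUSG00000025225, chr19:46304320-46312385, plus strand) encodes the p100 precursor of p52, which in its unprocessed form holds Relb inactive. Controls had 64.1, 79.9 and 64.6 CPM and knockouts 83.5, 91.6 and 90.8 CPM. Control 2 was the highest control and lay just under knockout 1. The difference between 69.5 ± 9.01 and 88.6 ± 4.46 CPM missed the threshold (log2 fold change 0.35 ± 0.10, edgeR adjusted p = 0.0597) and passed it without control 2 (0.43, adjusted p = 7.748e-04). It also passed with DESeq2 (adjusted p = 0.041), with scaling by library size only (0.031) and with sex as a covariate (0.0435). Exons of Psd and of AC114539.1 on the opposite strand cover 18.1% of the exonic bases of Nfkb2, and the strand setting of the counting is not known. Psd was at 6.43 to 8.19 CPM in 5 libraries and at 13.1 CPM in control 2.

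Relb (ENSMUSG00000002983, chr7:19606217-19629438, minus strand) encodes the partner of p52. It was at 37.2, 34.8 and 33.8 CPM in the controls and at 47.3, 46.5 and 49.7 CPM in the knockouts, with no overlap. The mean rose from 35.3 ± 1.73 to 47.9 ± 1.64 CPM (log2 fold change 0.44 ± 0.07, edgeR adjusted p = 0.00939; 0.39 without control 2, adjusted p = 0.00379). The call was lost without control 3 (adjusted p = 0.0596) and with the replicate number as a block (0.0513).

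**Figure D2:**
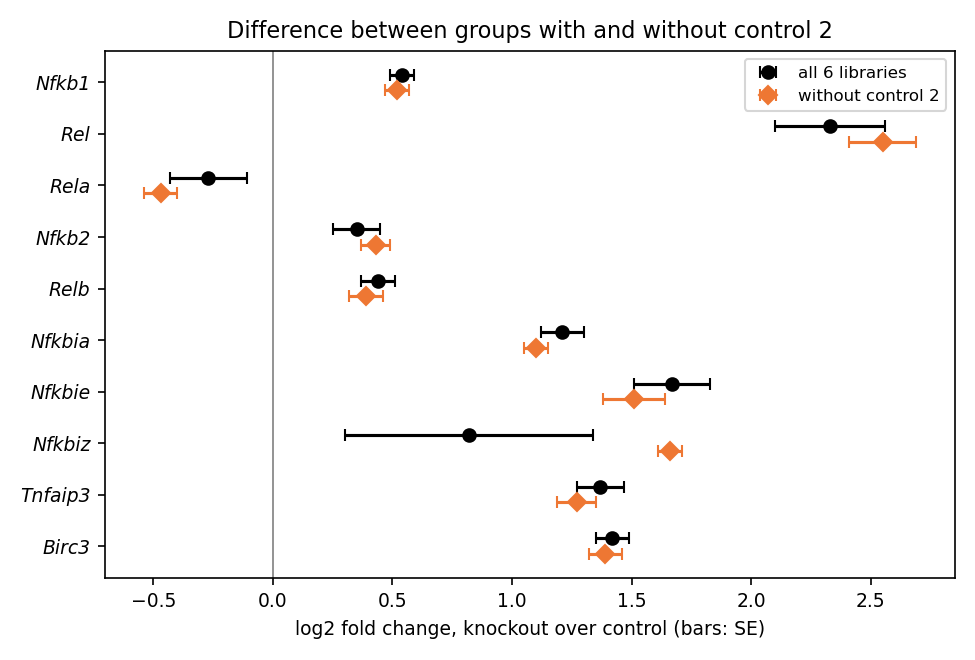
Log2 fold change of knockout over control (horizontal axis) for each of the 10 members, with bars for the standard error, fitted by edgeR on all 6 libraries (black circles) and without control 2 (orange diamonds). Nfkbiz moves most between the fits, from 0.82 to 1.66, and Rela is the member that lies left of 0.

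The canonical against the non-canonical arm was compared within each library as the mean log2 CPM of Nfkb2 and Relb minus that of Nfkb1, Rel and Rela. This difference was -0.31, -0.16 and -0.17 in controls 1 to 3 and -0.70, -0.72 and -0.68 in knockouts 1 to 3. The groups were apart by -0.49 with all libraries and by -0.46 without control 2. On this scale the canonical mean went from 5.72 to 5.92 in controls to 6.67 to 6.75 in knockouts, and the non-canonical mean from 5.55 to 5.72 to 5.98 to 6.07. The sign depended on which subunits entered and how they were weighted. Without Rel, an alternative chosen after seeing the data, the difference between groups was 0.25 with all libraries and 0.38 without control 2, and with summed CPM in place of the mean of logs it was 0.13 and 0.27. For Nfkb2 against Nfkb1 alone, a score that also leaves out Rel, it was -0.18 and -0.10. No p is given for these scores over the members.

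The makeup of the subunit pool was described per length of transcript, as each subunit's share of the summed CPM per kb of the 5 subunits. Rela held 51.8%, 39.4% and 49.8% in the controls and 33.8%, 34.3% and 34.7% in the knockouts. Nfkb1 held 23.3%, 28.1% and 24.6% against 32.5%, 31.8% and 31.7%. Rela thus had the highest share in every library, but in the knockouts the shares of Rela and Nfkb1 were close and the ranges of their levels overlapped. This closeness depended on the length used: per kb of all annotated exons joined, Rela held 47.1% to 48.1% and Nfkb1 17% to 17.5% in the knockouts. Rel held 0.483% to 0.984% in controls and 2.87% to 3.14% in knockouts. Nfkb2 and Relb together held 24.3%, 31.6% and 25.1% in controls and 30.7% in each knockout library. Control 2 was thus above the knockouts in this share, and the other controls were below them.

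**Figure D3:**
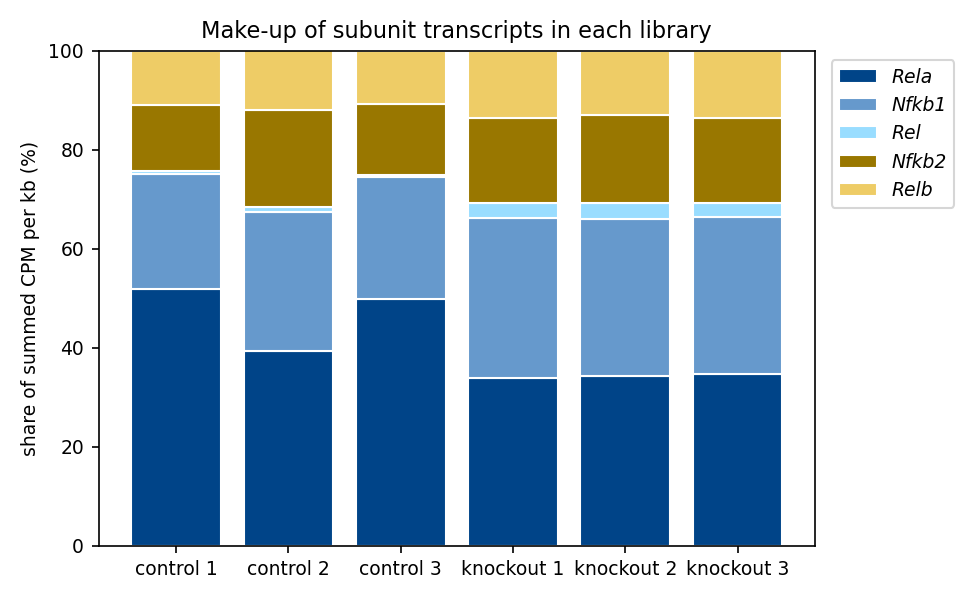
Share of each of the 5 NF-kB subunit transcripts (vertical axis, % of their summed CPM per kb of transcript) in each of the 6 libraries, canonical subunits in blue and non-canonical ones in brown and yellow. The Rela share is 33.8% to 34.7% in the knockouts and 39.4% to 51.8% in the controls, and control 2 lies between the other controls and the knockouts.

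Ratios between pairs of subunits, taken across the arms or within the canonical arm, were also computed per length. Relb to Rela was 0.212, 0.307 and 0.216 in controls and 0.406, 0.375 and 0.386 in knockouts. Rel to Rela was 0.00971 to 0.025 in controls and 0.0827 to 0.0916 in knockouts. Nfkb2 to Nfkb1 was 0.573, 0.694 and 0.585 against 0.523, 0.56 and 0.543, the ratio among these 3 that was lower in the knockout. None of the 3 ratios overlapped between the groups. How often ratios of other gene pairs do not overlap was not counted. Among single tested genes, 25.0% had every knockout above every control. Relb to Rela and Rel to Rela also share their denominator. The ratios compare transcripts and say nothing of protein or of processing to p50 and p52.

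The IkB family genes had higher estimates in the knockout throughout, although Nfkbiz did not pass the test with all libraries. Nfkbia (ENSMUSG00000021025, chr12:55489410-55492647, minus strand), whose promoter is printed above, encodes IkB alpha, the inhibitor that is degraded and resynthesised in each round of canonical signalling. Controls had 135, 113 and 133 CPM and knockouts 292, 292 and 300 CPM. The spread within the knockouts was small beside the gap between the groups, and control 2 was the lowest of the controls. The mean rose from 127 ± 12.2 to 294 ± 4.84 CPM (log2 fold change 1.21 ± 0.09, edgeR adjusted p = 0.00141; 1.10 without control 2, adjusted p = 9.948e-06).

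Nfkbie (ENSMUSG00000023947, chr17:45555703-45563169, plus strand) encodes IkB epsilon, an inhibitor that acts later than IkB alpha. It was at 16.1, 11.4 and 14 CPM in controls and at 38.2, 48.2 and 46.1 CPM in knockouts. All knockouts were above all controls, and the mean rose from 13.9 ± 2.35 to 44.2 ± 5.25 CPM (log2 fold change 1.67 ± 0.16, edgeR adjusted p = 0.00269; 1.51 without control 2, adjusted p = 1.038e-04).

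Nfkbiz (ENSMUSG00000035356, chr16:55811375-55838899, minus strand) encodes IkB zeta, a nuclear member of the family that takes part in switching on secondary inflammatory genes. It was at 30.7, 111 and 32.3 CPM in controls and at 102, 103 and 102 CPM in knockouts. Control 2 lay above all 3 knockouts, while controls 1 and 3 were far below them. With all libraries the difference did not pass (57.8 ± 45.7 against 102 ± 0.562 CPM, log2 fold change 0.82 ± 0.52, edgeR adjusted p = 0.301). Without control 2 it was 1.66 ± 0.05 (adjusted p = 3.206e-06). The summed fibroblast markers were also highest in control 2, as given above, and their part in the Nfkbiz level was not tested.

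Tnfaip3 (ENSMUSG00000019850, chr10:19000910-19015657, minus strand) encodes A20, a ubiquitin-editing enzyme that shuts down canonical signalling upstream of IKK. Its levels were 31.7, 27.0 and 31.2 CPM in controls and 70.4, 81.5 and 80.9 CPM in knockouts. The groups were well apart, and the mean rose from 29.9 ± 2.60 to 77.6 ± 6.28 CPM (log2 fold change 1.37 ± 0.10, edgeR adjusted p = 0.0015; 1.27 without control 2, adjusted p = 3.034e-05).

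Birc3 (ENSMUSG00000032000, chr9:7848699-7873186, minus strand) encodes cIAP2, a ubiquitin ligase that works at TNF receptor complexes and keeps NIK low in unstimulated cells. It was at 26.2, 27.6 and 28.3 CPM in controls and at 68.8, 77.1 and 73.3 CPM in knockouts. Control 2 was like the other controls, and the mean rose from 27.4 ± 1.08 to 73.1 ± 4.13 CPM (log2 fold change 1.42 ± 0.07, edgeR adjusted p = 6.232e-04; 1.39 without control 2, adjusted p = 1.404e-05). Of the 50-base sequences in its transcripts 7.38% also occur in other genes, most of them in the pseudogene Gm7019 (4.19%), with 1.28% in its paralog Birc2, so a small part of its counts could have been split.

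Nfkbia, Nfkbie and Tnfaip3 were also set against Rela. Per length, Nfkbia to Rela was 1.08, 1.39 and 1.18 in controls and 3.5, 3.29 and 3.27 in knockouts. Nfkbie to Rela was 0.0811 to 0.0915 against 0.297 to 0.353, and Tnfaip3 to Rela 0.0903 to 0.119 against 0.301 to 0.328. None of the 3 ratios overlapped between the groups, with control 2 included. All 3 share Rela as the denominator, and the share of other gene pairs without overlap was not counted.

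In levels per kb of the principal transcript, Nfkbia was highest in both groups (80.5 CPM per kb in controls, 187 in knockouts), followed by Rela (67.2 and 55.7) and Nfkb1 (35.8 and 52.0). The ranges of Nfkbia and Rela overlapped in the controls and not in the knockouts, and those of Rela and Nfkb1 overlapped in the knockouts and not in the controls. In controls there followed Nfkb2 (22.1), Relb (16), Nfkbiz (14.1), Birc3 (10.3), Tnfaip3 (6.77) and Nfkbie (5.69), with overlap between Relb and Nfkbiz, Nfkbiz and Birc3, and Tnfaip3 and Nfkbie. In knockouts Birc3 (27.4) was level with Nfkb2 (28.2) and above Nfkbiz (24.8) and Relb (21.7), and Nfkbie (18.1) and Tnfaip3 (17.5) overlapped. The order depended in part on the length used: per kb of all annotated exons joined, Nfkb2 was above Nfkb1 in controls (15.2 against 12.2), and Rela (49.3) and Nfkb1 (17.8) did not overlap in the knockouts.

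The spread of the members differed between the groups. The coefficient of variation of the CPM was 0.551% to 11.9% over the 3 knockouts and 2.18% to 79.1% over the 3 controls, with Nfkbiz at both the lowest knockout and the highest control value. On the log2 scale control 2 differed from the mean of the other controls by 1.81 for Nfkbiz, 0.67 for Rel, 0.31 for Nfkb2, -0.39 for Nfkbie and -0.55 for Rela, and by -0.25 to 0.05 for the other 5 members.

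Fnbp1 and Mcrip1 were among the 3 tested genes whose levels followed Nfkb2 most closely over the 6 libraries, with root mean square differences of 0.032 and 0.036 in centred log2 CPM. For Nfkbia the 3 closest were Ptch1, Pnrc1 and Slc9a3r1 (0.07, 0.07 and 0.08). These likenesses include the difference between the groups.

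The rest of the pathway was described with 6 lists of 79 textbook genes. The lists were also chosen with earlier results of these data known, so the shares beside them are descriptive. Over all tested genes 13.1% were called higher and 11.7% lower, and 25.5% and 24.8% without control 2. Among canonical receptors and adaptors, 6 of 11 were higher and 0 lower, with a median log2 fold change of 0.56. Tlr2, which senses bacterial lipoproteins, was at 4.90, 2.78 and 5.04 CPM in controls and at 51.9, 70.9 and 50.3 CPM in knockouts (3.76, edgeR adjusted p = 0.00161). The interleukin-1 receptor Il1r1 rose from 54.5 ± 3.59 to 229 ± 26.8 CPM (2.07, adjusted p = 6.232e-04). Its accessory chain Il1rap rose from 56.3 ± 28.5 to 228 ± 14.1 CPM (2.01, adjusted p = 0.0126, lost without knockout 2 at 0.0559). Tnfrsf1a, Tnfrsf1b and Myd88 were the other 3 called, at 0.56, 1.13 and 0.87. The call of Myd88 was lost when any library other than control 2 was left out (edgeR adjusted p from 0.0804 to 0.113), and that of Tnfrsf1a without control 3 or any of the knockouts (0.0542 to 0.0678). Without control 2 the count was 6 higher and 2 lower, and without any other library 3 to 5 higher and 0 lower.

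The canonical kinase and ubiquitin complexes behaved otherwise: 2 of 13 were higher and 1 was lower, with a median of -0.02, shares near those of all genes. Without control 2 the count was 3 higher and 4 lower, and without any other library 0 to 1 higher and 0 lower. The kinase Irak1 rose by 0.29 and Map3k7 (TAK1) by 0.21 on the log2 scale, and Ripk1, a kinase of the TNF receptor complex, fell by 0.51 (edgeR adjusted p = 0.0092, 0.0382 and 0.0384). The calls of Map3k7 and Ripk1 were each lost when any library other than control 2 was left out, and that of Irak1 without control 3 or knockout 1 (0.0679 and 0.0512). The IKK subunits Ikbkb and Ikbkg were at 0.05 and 0.01 (adjusted p = 0.751 and 0.956). Chuk, the IKK alpha kinase, was counted in the non-canonical list and not here (0.50, edgeR adjusted p = 0.00841).

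Of the non-canonical receptors, kinases and ligases, 5 of 8 tested (10 listed) were higher and 0 lower (over all genes 13.1% and 11.7%), with a median of 0.46. Without control 2 all 8 were higher, against 25.5% of all tested genes. The count was 2 without control 1 and 3 without control 3 or any of the knockouts. The ligase gene Birc2 (cIAP1) was at 33.5, 32.2 and 34.4 CPM in controls and at 73.5, 85.5 and 76.3 CPM in knockouts (1.23, edgeR adjusted p = 0.00117). Chuk, the IKK alpha kinase, rose by 0.50 and Traf3, which recruits NIK for degradation, by 0.48 on the log2 scale (adjusted p = 0.00841 and 0.0092). The call of Traf3 was lost without control 1 (0.0502). Traf2 and Cd40 were the other 2 called, and both calls were lost when any library other than control 2 was left out. Map3k14 itself was at 7.61 to 9.64 CPM in controls and 9.53 to 10.1 CPM in knockouts and did not pass (0.23, adjusted p = 0.25).

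Among 12 tested other IkB proteins and negative regulators (13 listed), 1 was higher and 3 were lower (over all genes 13.1% and 11.7%), with a median of 0.10. The count was 4 higher and 3 lower without control 2 (over all genes 25.5% and 24.8%). It was 0 higher and 1 lower when any other library was left out. Nfkbib, the gene of IkB beta, rose by 0.53, while the adaptor Traf1 fell by 0.97 and the deubiquitinase Otud7b by 0.42 on the log2 scale (edgeR adjusted p = 0.0392, 0.0443 and 0.00635). Rnf11 was the other gene called lower. The calls of Nfkbib, Traf1 and Rnf11 were each lost when any library other than control 2 was left out. Bcl3 and Zc3h12a are named here after their values were seen, because control 2 parted from the other controls there as it did in Nfkbiz. Bcl3, an atypical nuclear IkB protein, was at 3.90, 22.5 and 4.55 CPM in controls and 31.8, 30.7 and 30.6 CPM in knockouts (1.59, adjusted p = 0.155; 2.84 without control 2). Zc3h12a, the RNase regnase-1, was at 7.06, 34.7 and 8.49 against 72.4, 80.4 and 72.0 CPM (2.16, adjusted p = 0.0598; 3.23 without control 2).

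Of the textbook target genes of the canonical pathway, 16 of 23 tested (24 listed) were higher and 0 lower (over all genes 13.1% and 11.7%), with a median of 1.97. Without control 2 the count was 21 higher and 1 lower (over all genes 25.5% and 24.8%), the lower gene being Cflar. It was 13 higher without control 1 and 9 to 11 higher without control 3 or any of the knockouts, with 0 lower. The chemokine gene Ccl20 was at 0.316, 1.31 and 0.329 CPM in controls and at 243, 309 and 210 CPM in knockouts (log2 fold change 8.60, edgeR adjusted p = 0.00116). The complement gene C3 was at 1.95, 11.3 and 1.10 against 340, 441 and 324 CPM (6.27, adjusted p = 0.00898). Cxcl10, a chemokine of lymphocytes, was at 0.527, 0 and 0.274 against 3.75, 17.6 and 9.97 CPM (5.25, adjusted p = 0.0177), a call lost without control 3, knockout 2 or knockout 3. Of the endothelial adhesion genes, Icam1 rose by 1.92 (adjusted p = 0.00163), and Vcam1 and Sele did not pass (0.52 and -0.52, adjusted p = 0.25 and 0.696). Without control 2 both were called higher, Vcam1 at 0.21 and Sele, whose direction turned, at 1.16 (edgeR adjusted p = 0.0479 and 0.00375). Sele was at 52.2 CPM in control 2 and at 6.11 to 18.2 CPM elsewhere.

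The non-canonical target list could hardly be read in these cells: 1 of its 8 genes, Cxcl12, was tested. The other 7 were at no more than 0.976 CPM in any library except Tnfsf11 in control 2, at 16.5 CPM. Cxcl12 was at 1620, 565 and 1570 CPM in controls and at 529, 461 and 537 CPM in knockouts (-1.30, edgeR adjusted p = 0.0659; -1.68 without control 2, adjusted p = 1.126e-05).

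**Figure D4:**
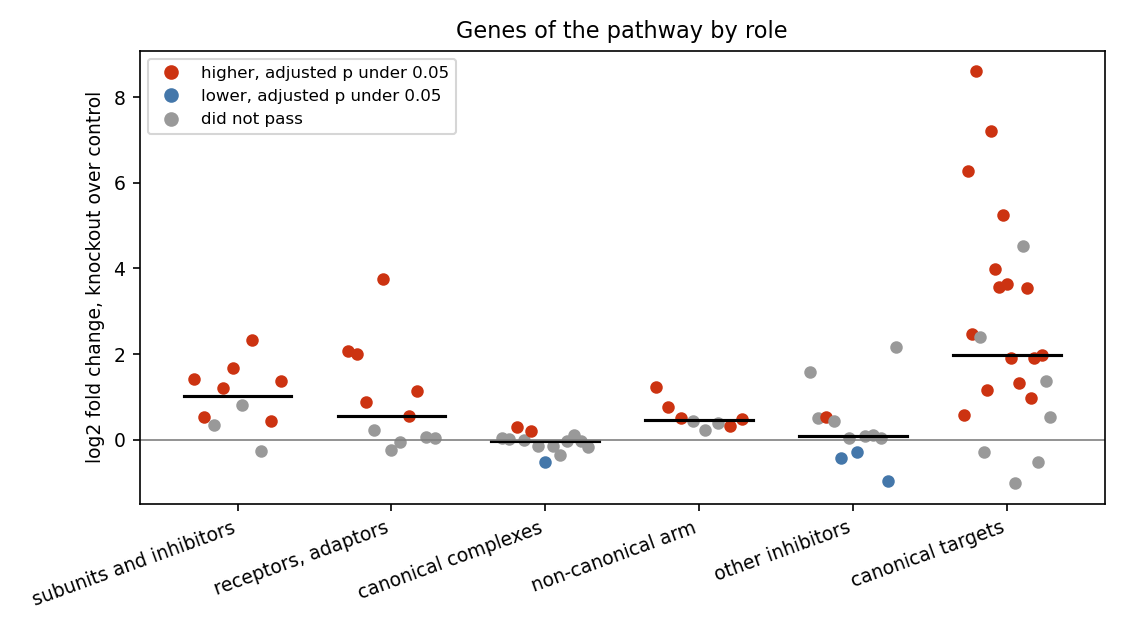
Log2 fold change of knockout over control (vertical axis) of the 10 members and of the tested genes of 5 pathway lists, each point a gene, colored by the edgeR call, with the list median as a black line. The medians are 1.02 for the members, 0.56 for receptors, -0.02 for the canonical complexes, 0.46 for the non-canonical arm, 0.10 for other inhibitors and 1.97 for canonical targets.

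Some immediate-early and stress genes moved beside the feedback genes. The summed level of 11 such genes was 583 to 799 CPM in controls and 1170 to 1240 CPM in knockouts. Fos, Junb and Ier2 were called higher and Atf3 lower by edgeR (over all genes 13.1% and 11.7%). Without control 2 the count was 8 higher and 2 lower (over all genes 25.5% and 24.8%). The Junb call was lost when any library other than control 2 was left out. That of Fos was lost when control 3 or any knockout was left out. That of Ier2 was lost when any knockout was left out, and that of Atf3 without knockout 2. Many of the 11 genes respond to dissociation and sorting as well as to signalling, and their part in the levels of the members was not tested. Among the 10 leukocyte markers Cd68 was at 1.79, 1.69 and 2.96 CPM in controls and at 1.75, 1.28 and 1.78 CPM in knockouts. All 10 summed to 2.90 to 4.22 CPM in controls and 2.06 to 3.01 CPM in knockouts. The part of such cells in the Rel level was not tested.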

How the data were processed

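RNA of sorted endothelial cells was sequenced as polyadenylated libraries made with a TruSeq kit, either RNA v2 or Stranded mRNA, per the labels' protocols, which do not say which library had which. The authors deposited raw counts per gene for 52636 Ensembl identifiers and 6 libraries (17274639 to 19410458 counts each). FastQC 0.11.5, STAR 2.7.6a and GRCm38 are named, per the submitters' processing notes; for the counting step, its strand setting and its annotation, nothing is given in the sources used here. Symbols and positions came from GENCODE M21 (52489 identifiers matched; the other 147 held at most 0.0061% of a library's counts).

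Counts were fitted in R 4.3.3 with edgeR 4.0.16 (filterByExpr, TMM, two-sided quasi-likelihood F test, Benjamini-Hochberg over 13901 genes, threshold 0.05). The SE is the log2 fold change divided by the square root of F. Log2 CPM used a prior count of 2. The fit was tested on simulated counts. Alternatives tried were DESeq2 1.42.0, limma 3.58.1 voom, 3 other scalings (upper-quartile, RLE, none beyond library size), other filters, a replicate block, a sex term, stricter thresholds and each library left out.

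The members and lists were chosen with earlier results of these data known. Genes named were the members, the 3 called genes of each list with the largest absolute log2 fold change at a mean of at least 5 CPM, and the 3 genes (mean of at least 10 CPM) closest to Nfkb2 and to Nfkbia, of which 1 is not reported here; other genes are named to complete a count or to give a pathway step.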

Additional observations from a re-analysis of the deposited data

How the results depend on the processing

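No log2 fold change of the 10 members reversed over 170 combinations of a member with an alternative setting. The stricter thresholds reuse the fold changes of the report. In 160 of these combinations the side of the threshold was also kept. A call was lost in 4 (Nfkb1 and Relb against a 1.5-fold change, Relb with the replicate block and without control 3). A call was gained in 6 (Nfkb2 in 4, Rela and Nfkbiz without control 2). The count of members called higher was 5 to 9 and of members called lower 0 to 1, where the 1 is Rela without control 2. Over all genes 3437 were called, and 1256 at an adjusted p under 0.01, 982 against a 1.5-fold change and 1351 to 7128 with a library left out, 7128 being the count without control 2. With the replicate block 1844 genes and 6 members were called. Deviations from the group mean in log2 CPM correlated at -0.174, 0.162 and 0.253 between same-numbered libraries. Between differently numbered control and knockout libraries they correlated at -0.33 to 0.324, so the numbers were not taken as pairs. The difference between the arms (-0.49) was 0.13 from summed CPM and 0.25 without Rel, and -0.18 for Nfkb2 against Nfkb1. It reversed where Rel, the least abundant subunit, had little weight or was left out beside Rela. It stayed negative for Nfkb2 against Nfkb1, which holds neither Rel nor Rela. List counts of calls higher were 3 to 7 for receptors, 0 to 3 for canonical complexes, 1 to 8 for the non-canonical arm, 0 to 4 for other inhibitors and 9 to 21 for canonical targets, and of calls lower 0 to 2, 0 to 4, 0, 0 to 3 and 0 to 1. The effect of depth was not tested; the members had at least 94 counts per library.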
